A study of Mus musculus with 6 samples.

Results

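The islets of FXR+/+ (wild-type) mice were described on their own, gene by gene, from the 3 libraries of this genotype among the 6 of the series: 1 from females (female 1) and 2 from males (male 1 and male 2), all at 3 months of age. The members were chosen by genotype alone, and all 19342 genes of the deposited count table were described. The labels name no treatment and no engineered allele for these animals. Poly(A) RNA of isolated islets was sequenced, and the number of reads per gene was deposited. Whether a library holds 1 mouse or a pool is not stated, so the spread between libraries may be partly technical, and with 1 female library the sex and that library cannot be told apart.

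The islets of Langerhans are the endocrine part of the pancreas. Beta cells make insulin, alpha cells glucagon, delta cells somatostatin and gamma cells pancreatic polypeptide, and each hormone is cut from a precursor and stored in dense secretory granules. Around the islets lies the exocrine pancreas, in which acinar cells make the digestive enzymes and ducts carry them away. Isolation with collagenase frees the islets from this tissue, and endothelial cells, pericytes and macrophages stay within them.

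The 3 libraries held 20629306 to 30139235 counts. Levels are given as CPM, counts scaled to the total of each library. Pearson's r of log2 CPM between pairs of libraries was 0.969 to 0.978 across 15111 genes, which are not independent replicates. Male 1 and male 2 were the least alike pair. The sex labels matched the sex-linked genes in all 3 libraries. The hormone markers of all 4 endocrine cell types were among the 30 most abundant genes, so the label of islets held, beside acinar genes at 5.43% to 15.1% of counts.

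The count table was dominated by few genes. Of the mean CPM, 50% was held by 272 genes and 90% by 5176 genes. The single most abundant gene held 14.4% of counts in female 1, 14.3% in male 1 and 16.4% in male 2. Per library, 50% of counts was reached with 325 genes in female 1, 172 in male 1 and 314 in male 2. Of the listed genes, 13509 had a mean of at least 1 CPM, 9269 of at least 10 CPM, 1475 of at least 100 CPM and 56 of at least 1000 CPM. No count in any of the libraries was listed for 583 genes. When counts were divided by transcript length (TPM, in which each library is scaled to the same sum of length-corrected values), 4 genes held 50% of the total, which were Ins2, Ins1, Gcg and Ctrb1.

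**Figure D1:**
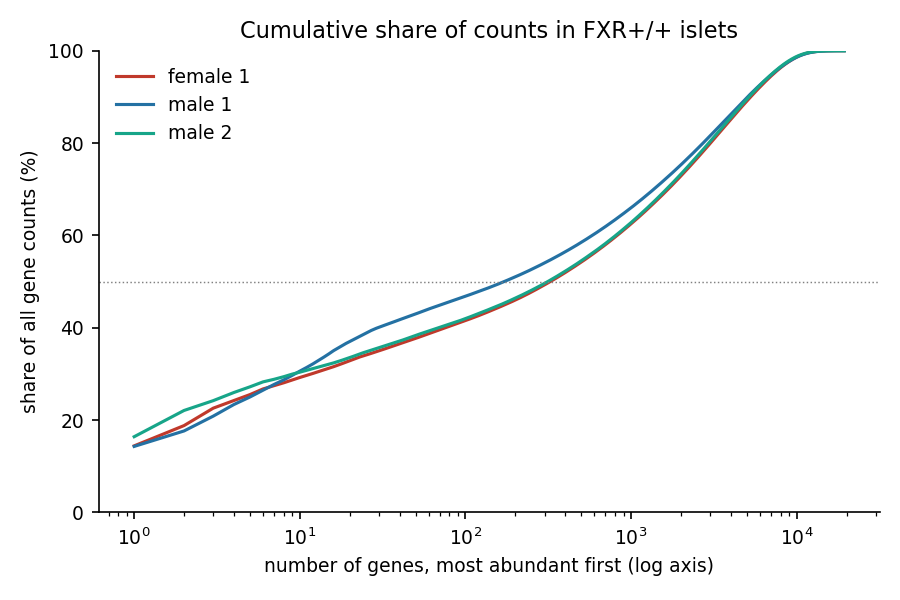
Cumulative share of gene counts (y axis, %) against the number of genes taken from the most abundant down (x axis, log scale), 1 line per FXR+/+ library. The dotted line marks 50%, which male 1 reached with 172 genes and the other 2 libraries with 314 and 325.

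The most abundant transcript was Ins2, one of the pair of mouse insulin genes (NCBI gene 16334; GRCm38 chromosome 7, 142678656 to 142679726). Ins2 was at 144199 CPM in female 1, 142973 in male 1 and 164016 in male 2, or 150396 ± 11811 (SD, n = 3). Ins1, the second insulin gene (NCBI gene 16333; chromosome 19, 52264297 to 52265015), was at 43912, 32074 and 56841 CPM in the same order. Ins1 thus varied more than Ins2, with an SD of log2 CPM of 0.36 against 0.11. The ratio of Ins2 to Ins1 counts was 3.28, 4.46 and 2.89. On the TPM scale that ratio was 7.30 ± 1.69 (SD, n = 3) with the transcript lengths used here. It was 3.62 ± 0.834 with the lengths of the deposited exon table. In the same order, these sources give Ins1 1062 and 595 bases and Ins2 515 and 583 bases.

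Gcg, which encodes proglucagon (NCBI gene 14526; chromosome 2, 62474530 to 62483653), was the third most abundant gene by CPM. It was at 37700 CPM in female 1, 25185 in male 1 and 21252 in male 2. Sst, the somatostatin gene (NCBI gene 20604; chromosome 16, 23889573 to 23891342), was at 5296, 3668 and 3105 CPM. The female library was highest for both, and the ratio of Gcg to Sst counts was nearly constant, at 7.12, 6.87 and 6.84. Ppy, which encodes pancreatic polypeptide (NCBI gene 19064; chromosome 11, 102099931 to 102101319), was at 2845, 3112 and 2573 CPM and was highest in male 1. In these bulk libraries more cells of a type and more RNA per cell cannot be told apart.

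Iapp, which encodes the amylin peptide that beta cells release together with insulin, was at 16573, 12597 and 17678 CPM. Pyy, the gene of peptide YY, was at 1351, 1339 and 1074 CPM. Ghrl, the ghrelin gene, was far below the others at 3.24, 3.10 and 2.02 CPM. Per length, the order of the mean levels was Ins2 (388642 ± 32682 TPM, SD, n = 3), Ins1 (55605 ± 16072), Gcg (34414 ± 11219), Iapp (24820 ± 4652), Ppy (7763 ± 649), Sst (7447 ± 2250), Pyy (3019 ± 383) and Ghrl (8.77 ± 2.12). The ranges of neighbours overlapped between Ins1 and Gcg, between Gcg and Iapp and between Ppy and Sst, and did not overlap for the other neighbours. With the lengths of the exon table Ins1 stayed second, and Sst came above Ppy on average. The mean ratio of Sst to Ppy was then 1.13 ± 0.309, against 0.956 ± 0.261 with transcript lengths. With either set of lengths Sst was above Ppy in female 1 only. In female 1, male 1 and male 2 the ratio was 1.49, 0.944 and 0.967 with the exon table. It was 1.26, 0.796 and 0.815 with transcript lengths.

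**Figure D2:**
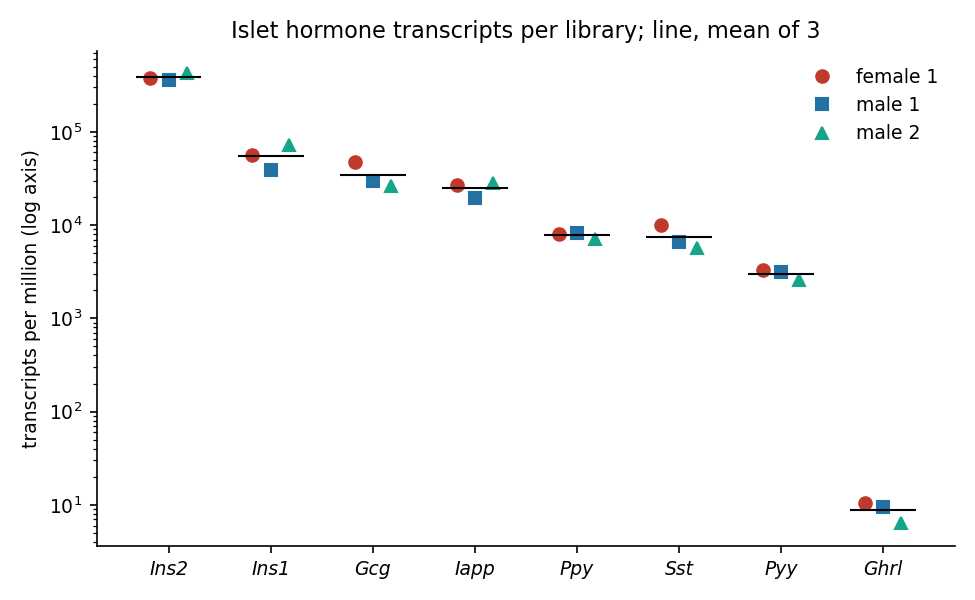
TPM of the 8 hormone genes (y axis, log scale) in each FXR+/+ library, with symbols for female 1, male 1 and male 2 and a line at the mean of the 3. Ins2 lies at 388642 TPM on average and Ghrl at 8.77, and female 1 is highest for Gcg and Sst.

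The promoters of 4 islet hormone genes, of the abundant acinar genes Pnlip (pancreatic lipase) and Cela2a (an elastase) and of Fos, the immediate early gene with the highest CPM, are shown to set core promoter letters beside these levels. Each run is the 250 bases before the start of the gene in a RefSeq promoter table on GRCm38.p6, in the direction of transcription. For Sst that start lies inside the gene span given above, which reaches farther upstream. Capitals mark TATAAA, 1 form of the TATA box, in the last 50 bases on the strand shown. They also mark TGACGTCA, the cyclic AMP response element, on either strand (it is its own reverse complement).
Gcg (chr2:62483654-62483903, minus strand): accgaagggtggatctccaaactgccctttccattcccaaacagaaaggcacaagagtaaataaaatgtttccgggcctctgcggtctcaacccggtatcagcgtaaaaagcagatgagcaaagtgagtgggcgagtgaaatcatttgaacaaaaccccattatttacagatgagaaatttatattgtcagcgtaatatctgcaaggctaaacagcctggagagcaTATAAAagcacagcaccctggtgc
Sst (chr16:23890845-23891094, minus strand): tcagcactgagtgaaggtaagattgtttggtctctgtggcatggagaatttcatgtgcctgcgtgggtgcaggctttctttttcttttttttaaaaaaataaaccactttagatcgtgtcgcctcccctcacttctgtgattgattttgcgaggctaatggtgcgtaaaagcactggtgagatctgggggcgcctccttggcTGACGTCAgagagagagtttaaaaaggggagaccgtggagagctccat
Iapp (chr6:142298175-142298424, plus strand): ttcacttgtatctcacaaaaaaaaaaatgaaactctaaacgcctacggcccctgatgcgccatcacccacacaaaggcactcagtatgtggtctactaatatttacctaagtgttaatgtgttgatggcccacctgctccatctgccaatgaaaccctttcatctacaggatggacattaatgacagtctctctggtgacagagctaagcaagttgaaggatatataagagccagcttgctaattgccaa
Ppy (chr11:102101320-102101569, minus strand): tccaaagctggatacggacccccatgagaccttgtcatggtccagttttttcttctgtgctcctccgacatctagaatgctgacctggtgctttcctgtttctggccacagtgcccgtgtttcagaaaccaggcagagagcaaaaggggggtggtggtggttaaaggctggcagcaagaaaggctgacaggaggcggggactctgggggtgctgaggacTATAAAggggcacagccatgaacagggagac
Pnlip (chr19:58670115-58670364, plus strand): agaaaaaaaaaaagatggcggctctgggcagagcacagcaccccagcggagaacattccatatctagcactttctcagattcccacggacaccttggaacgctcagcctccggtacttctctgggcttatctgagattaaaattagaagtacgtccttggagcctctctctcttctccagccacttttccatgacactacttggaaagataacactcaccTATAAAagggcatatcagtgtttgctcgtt
Cela2a (chr4:141826006-141826255, minus strand): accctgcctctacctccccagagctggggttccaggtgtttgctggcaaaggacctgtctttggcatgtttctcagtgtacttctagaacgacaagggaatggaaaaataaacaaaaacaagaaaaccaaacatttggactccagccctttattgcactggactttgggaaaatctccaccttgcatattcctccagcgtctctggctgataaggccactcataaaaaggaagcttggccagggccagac
Fos (chr12:85473640-85473889, plus strand): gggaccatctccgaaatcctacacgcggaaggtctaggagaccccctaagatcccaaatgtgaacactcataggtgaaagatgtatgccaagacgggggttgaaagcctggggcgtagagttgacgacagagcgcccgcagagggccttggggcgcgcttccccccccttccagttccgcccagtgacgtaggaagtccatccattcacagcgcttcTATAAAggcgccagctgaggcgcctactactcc
TATAAA began at −24 in Gcg, −31 in Ppy, −30 in Pnlip and −33 in Fos, counted from −1 at the base before the start. Sst held no TATAAA in this window and held TGACGTCA at −48, and Iapp and Cela2a held neither of these exact runs. Other forms of the TATA box, such as the tatataag near the end of the Iapp run, were not searched for. The numbers for TATAAA are thus not numbers of all TATA boxes. Of the 30 genes with the highest CPM, 25 had a promoter in the table and 8 of these held TATAAA in the last 50 bases. Among all 14739 counted genes with a promoter the share was 2.82%. It was 12 of 31 (38.7%) in the acinar list, 2 of 7 (28.6%) in the hormones and 1 of 22 (4.55%) in the immediate early and stress list. For TGACGTCA in the 250 bases the share was 2 of 25 among the 30 genes and 2.63% among all. These are matches of letters and were not tested as binding sites.

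Some granule genes were also among the most abundant genes. Chga, which encodes the granule protein chromogranin A, was at 12863 CPM in female 1, 9824 in male 1 and 12282 in male 2. Scg2 (secretogranin II) was at 6165, 4632 and 5615 CPM. Both were lowest in male 1, as were 10 of the 17 granule and processing genes after scaling by trimmed means of log ratios (TMM), against 36.5% of all tested genes; counts of genes highest or lowest in a library are on this scale throughout. Cpe, the carboxypeptidase that trims prohormones, was at 2457 ± 263 TPM (SD, n = 3), and Resp18, also of this list, at 1747 ± 306 TPM. All 17 genes of this list had a mean of at least 1 CPM, and their TPM ran from 12.1 to 8254. Together the hormones and granule genes took 29.0% of counts in female 1, 25.2% in male 1 and 30.3% in male 2, or 28.1 ± 2.66% (SD, n = 3). Insulin alone took 19.5 ± 2.36%.

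The transcription factors that define islet cells were present at far lower levels than the hormones other than Ghrl. Mafa, an activator of insulin genes, was at 337, 310 and 341 CPM in female 1, male 1 and male 2, and Pax6, which all endocrine cells use, was at 352, 318 and 349. Nkx6-1, a beta cell factor, was at 333, 390 and 297 CPM. Nkx2-2 was at 181, 154 and 163 CPM. The SD of log2 CPM was 0.02 for Mafa and for Pax6, 0.26 for Nkx6-1 and 0.07 for Nkx2-2. Of 25 such factors 24 had a mean of at least 1 CPM, and the median SD of those 21 with at least 10 CPM was 0.12 (highest 0.57), close to the 0.11 of all 9269 genes at that level.

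Genes for glucose sensing and exocytosis varied between libraries about as much as all genes did. G6pc2, the islet glucose-6-phosphatase, was at 1944, 1623 and 1981 CPM. Abcc8, the sulfonylurea receptor subunit of the ATP-sensitive potassium channel, was at 1135, 1209 and 1196 CPM. Syt7, a calcium sensor of exocytosis, was at 281 ± 29.9 TPM and Vamp2, a granule SNARE protein, at 137 ± 22.8 TPM (SD, n = 3). All 18 counted genes of this list had at least 10 CPM, their SD of log2 CPM ran from 0.03 to 0.28, and its median was 0.11, as over all 9269 genes at that level. By contrast, genes that beta cells are known to keep low were at 0.15 to 13.8 TPM over 13 genes, with a median of 1.88 against 4.41 for all genes. Ldha, lactate dehydrogenase A, was the highest of them, at 13.6, 24.5 and 11.6 CPM. On the TMM scale 11 of the 13, Ldha among them, were highest in male 1, against 36.8% of all tested genes. By CPM 10 of the 13 were highest there. The part of the acinar RNA in male 1 in this order was not tested.

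Genes of the unfolded protein response and of folding in the endoplasmic reticulum were abundant. Hspa5, the chaperone BiP, was at 1333, 1258 and 1408 CPM, and Ero1lb, the oxidase that serves disulfide bond formation in the beta cell, at 1836, 1631 and 2325. Hsp90b1 was at 522 ± 104 TPM and Calr (calreticulin) at 436 ± 83.6 TPM (SD, n = 3). Male 2 was highest for 13 of the 19 genes, against 34.2% of all tested genes.

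The acinar list took 6.18% of counts in female 1, 15.1% in male 1 and 5.43% in male 2. The mean was 8.90 ± 5.38% (SD, n = 3), and 5.80% without male 1. Male 1 held more than the other 2 libraries together, and the ratio of acinar to endocrine counts was 0.213, 0.601 and 0.179. Ctrb1, the chymotrypsinogen gene, was at 12271, 33513 and 10739 CPM and was the fourth most abundant gene on average. Cela2a, an elastase, was at 7141, 16284 and 5586 CPM, and Pnlip at 6172, 14675 and 5610. Try4, a trypsinogen, was at 2736, 7997 and 2821 CPM. Trypsinogens, elastases and amylases are families of similar genes, so reads may be split among members by the counting. Of 37 acinar genes 34 were highest in male 1, against 36.8% of all 15111 tested genes. The 3 exceptions, named after their values were seen, were the amylase Amy2b (18.6, 28.9 and 118 CPM), the chymotrypsin Ctrc (16.6, 41.1 and 64.0) and the acinar transcription factor Bhlha15 (72.8, 75.5 and 90.9), which were highest in male 2.

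The 30 genes with the highest mean CPM held 10 hormone and granule genes, 13 acinar genes and 7 others. The others were G6pc2, the trypsinogen-like 2210010C04Rik, the ribosomal RNA precursor Rn45s, the elongation factors Eef1a1 and Eef2, Ero1lb and Ttr. Among the 20 highest by TPM were 8 endocrine genes, 12 acinar genes and 0 others, and 19 of the 20 were also in the list by CPM. Rn45s was at 3419 CPM in female 1, 5530 in male 1 and 2741 in male 2. Rn45s was thus highest in the library with the most acinar RNA, and that relation was not tested.

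Since the acinar share enters the total, hormone levels were also computed without the 37 acinar genes. Ins2 was then at 153694, 168412 and 173437 CPM, so that female 1 rather than male 1 was lowest. Gcg was at 40183, 29666 and 22473 CPM on this scale, Sst at 5644, 4321 and 3284 and Ppy at 3033, 3666 and 2721. The order of the libraries stayed the same for these last 3 genes, and for Ins1 and Iapp. Pyy, at 1440, 1577 and 1136 CPM, and Ghrl, at 3.46, 3.65 and 2.14, were then highest in male 1 rather than in female 1.

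Genes of the duct list took 0.108 ± 0.0146% of counts (SD, n = 3). The list is not exclusive to ducts (Spp1 and Tspan8 are also on the gamma cell list), so this is not a share of duct RNA. Tff2, a secreted trefoil peptide, was at 120, 288 and 109 CPM and followed the acinar order. The keratins Krt18 and Krt8 were at 107 ± 14.8 and 98.9 ± 19.1 TPM, and the adhesion molecule Epcam at 80.9 ± 11.95 TPM. Of 16 duct genes tested, 8 were highest in male 1 and 7 in female 1, against 36.8% and 29.0% of all tested genes.

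Stromal genes (endothelial, pericyte and smooth muscle, stellate and fibroblast) took 0.115% of counts in female 1, 0.135% in male 1 and 0.107% in male 2. Endothelial genes were the larger part, at 0.0791 ± 0.00484% (SD, n = 3). Plvap, which forms the diaphragms of fenestrated capillaries, was at 141, 158 and 131 CPM, and Kdr, the receptor for vascular endothelial growth factor A, at 138, 143 and 139. The libraries overlapped closely for Kdr. Rgs5, a pericyte marker, was at 117, 105 and 114 CPM with an SD of log2 CPM of 0.02. Smooth muscle genes were lower, with Acta2 at 5.39 ± 2.78 TPM.

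The stellate and fibroblast list took only 0.0146%, 0.0290% and 0.0135% of counts, but all 15 of its genes were highest in male 1. Sparc, a matrix protein that endothelial cells also make, was at 77.6, 120 and 84.3 CPM. The collagen genes Col3a1 and Col1a2 were at 14.9, 50.1 and 12.3 CPM and at 15.1, 28.6 and 10.2 CPM. Dcn (decorin) was at 4.66, 13.7 and 2.36 CPM. Most genes of the other stromal lists had the same order with smaller differences: 13 of 15 endothelial genes and 11 of 12 pericyte and smooth muscle genes were highest in male 1 (36.8% of all tested genes), with median log2 deviations of 0.20 and 0.36 there, against 1.33 for the stellate and fibroblast list.

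Immune genes took 0.0363 ± 0.00757% of counts (SD, n = 3). C1qa, a complement gene of tissue macrophages, was at 66.1, 75.5 and 70.0 CPM, and Lyz2 (lysozyme) at 21.2, 18.9 and 7.93. Cd74, the invariant chain of MHC class II molecules, was at 186, 214 and 134 CPM. Of the 7 genes of the MHC class II list 7 were highest in male 1 on the TMM scale of the fit, against 36.8% of all tested genes. By CPM 6 of the 7 were highest there. Among lymphocyte genes Cd79a, of the B cell receptor, was at 27.2, 28.7 and 20.9 CPM, whereas its partner Cd79b was at 0.685, 3.54 and 0.265. Jchain, a plasma cell gene, was at 1.23, 15.9 and 2.85 CPM. Haemoglobin and platelet genes were near the floor, with Hba-a2 at 0.0913, 0.291 and 0.232 CPM.

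Ttr, a carrier of thyroid hormone that alpha cells make as well as liver, was at 2384, 1619 and 1318 CPM. The liver genes Alb and Apoa1 had few counts, 18, 10 and 245 for Alb and 7, 1 and 214 for Apoa1, and most were in male 2. The glial and neural genes were led by Th (tyrosine hydroxylase) at 56.0 ± 7.43 TPM and Mbp (myelin basic protein) at 41.1 ± 8.81 TPM. Most of this list was far lower, with a median of 1.91 TPM over 12 genes, of which 3 had at least 10 CPM. Msln (mesothelin) was at 69.7, 80.2 and 123 CPM and highest in male 2.

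**Figure D3:**
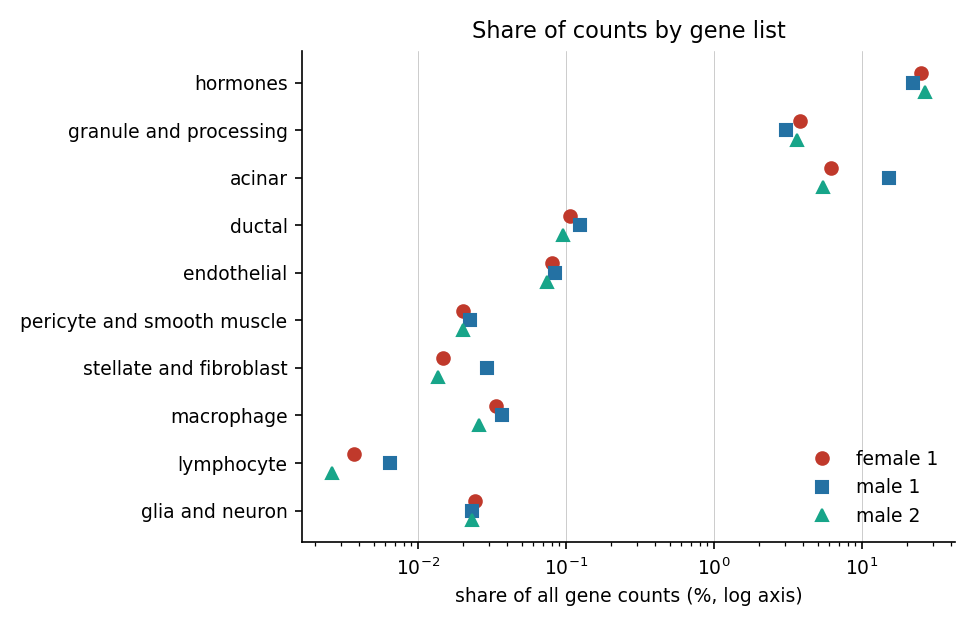
Share of all gene counts (x axis, %, log scale) taken by each gene list (y axis) in the 3 FXR+/+ libraries. The acinar list lies at 15.1% in male 1 and at 6.18% and 5.43% in the others, the hormones lie between 22.1% and 26.7%, and the endothelial, pericyte, fibroblast, immune and glial lists each lie under 0.1%.

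Alpha cell genes were highest in female 1. All 9 tested alpha cell genes were highest in female 1, against 29.0% of all tested genes. Beside Gcg and Ttr, Slc7a2, an amino acid transporter, was at 662, 476 and 547 CPM, and Gc, the vitamin D-binding protein, at 68.6, 58.1 and 63.9. The median log2 difference of the list between female 1 and the males was 0.53, against 0.00 for all genes, and it was 0.53 to 0.62 under the other scalings, filters and tools. None of the 9 passed the test described next. Among delta cell genes, Rbp4 (retinol-binding protein) was at 195, 138 and 132 CPM, whereas the prodynorphin gene Pdyn was at 58.5, 66.2 and 91.5. Thus 5 of 8 delta cell genes were highest in female 1, and Pdyn was highest in male 2.

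The female library was compared with both male libraries by edgeR's quasi-likelihood test with Benjamini-Hochberg adjustment over 15111 genes. The fit has 1 residual degree of freedom and assumes that the lone female library varies like the males. The test called 6 genes (0.0397% of those tested), of which 2 were higher in female 1 (0.0132%) and 4 lower (0.0265%). With library size alone it called 22 (10 higher and 12 lower), and DESeq2 called 17 (6 higher and 11 lower). Before adjustment, p was under 0.05 for 277 genes. The standard error (SE) of a log2 difference was taken as its size divided by the square root of the F statistic of the test. Its median was 0.66 for the 56 genes above 1000 CPM, against 0.18 for genes of 10 to 100 CPM. For Ins2, Ins1 and Gcg it was 18.8, 6.01 and 3.90, although their SDs of log2 CPM were 0.11, 0.36 and 0.40. It was lower for Sst and Ppy, at 0.80 and 0.65. Differences in Ins2, Ins1 and Gcg were thus hardly detectable by this fit.

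The 4 genes lower in female 1 were the 4 counted members of the Y-linked list. Eif2s3y, a translation initiation factor gene, had 0, 959 and 1802 counts in female 1, male 1 and male 2, and was at least 397-fold lower in CPM in the female (3 counts taken for the female library; edgeR adjusted p = 0.000482). Kdm5d, a histone demethylase gene, had 0, 580 and 923 counts and was at least 216-fold lower on the same floor. Ddx3y, an RNA helicase gene, had 2, 1306 and 2432 counts, a ratio of 806 with a 95% counting interval of 223 to 6660. Uty, a further demethylase gene, had 1, 598 and 978 counts, a ratio of 680 (122 to 26871). No level overlapped between the sexes for these 4 genes.

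Xist, the RNA that coats the inactive X chromosome, had 26114 counts in female 1, 9 in male 1 and 38 in male 2. Its CPM was 1288-fold higher in the female, with a 95% counting interval of 968 to 1753 (edgeR adjusted p = 0.00309). Glycam1, a mucin-like ligand of L-selectin known from lymph node vessels and mammary gland, had 234, 8 and 3 counts. It was higher in the female by 5.46 ± 0.43 on the log2 scale (SE; edgeR adjusted p = 0.0316), and by 5.85 and 4.40 without male 1 and without male 2. Its adjusted p ran from 1.17e-08 to 0.196 over this fit and its alternatives, and 4 of the 6 that gave a value called it. Of 11 lymphocyte genes, 9 were highest in male 1 (36.8% of all tested genes) and 7 were higher in female 1 than the fitted level of the males (7417 of all 15111), with a median log2 difference of 0.17 and 0 called; their part in the Glycam1 counts was not tested. The next gene by p, Apol7c, with 138, 2 and 5 counts, did not pass (edgeR adjusted p = 0.0936, and 1.69e-06 to 0.179 over 6 settings, 2 of which called it); it was named after its value was seen.

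The 6 genes that escape X inactivation were all higher in female 1 than in both males, as were 29.0% of all tested genes. Ddx3x, the X-linked partner of Ddx3y, was at 486 CPM in female 1, 285 in male 1 and 323 in male 2, and Eif2s3x at 188, 116 and 130. Kdm5c was at 152, 115 and 127 CPM. The median log2 difference of the 6 was 0.43, none passed the test, and the lowest adjusted p among them was 0.783 by edgeR. In simulated counts for this comparison the biological coefficient of variation was set to 15% for every gene (18.5% in the data). In the data the median of its trend was 12.5% at 10 to 100 CPM and 45.6% below 1 CPM. The changed genes were drawn only from those with a mean of at least 100 counts. The simulated numbers found therefore do not give the share of such differences that is found in the data. Of 200 genes changed 2-fold among 15028 genes, 98 were found, with 6 false calls. Of 200 changed 4-fold among 14978 genes, 200 were found, with 11 false calls.

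The spread between the 3 libraries was small for most genes. The common biological coefficient of variation was 18.5%, and for pairs of libraries it was 16.3% (female 1 and male 1), 15.8% (female 1 and male 2) and 22.3% (both males). Over 9269 genes with a mean of at least 10 CPM the median SD of log2 CPM was 0.11, and 83.4% of genes were under 0.2. The median coefficient of variation fell with abundance from 40.7% below 1 CPM to 17.8% at 1 to 10 CPM and 9.46% at 10 to 100 CPM, where counting alone gives 27.4%, 10.5% and 3.68%. Above 1000 CPM (56 genes) it was again 17.8%, where counting gives 0.472%.

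The 15 genes with the smallest SD had SDs of at most 0.00625, below the 0.00813 to 0.0889 that counting alone gives, so their order among themselves is not resolved. In all, 1327 of the 9269 genes (14.3%) were below the counting value. The steadiest by this measure were Cdc42se1, a small effector of the GTPase CDC42 (48.3, 44.3 and 47.5 CPM in female 1, male 1 and male 2), and Cnot1, the scaffold of the CCR4-NOT deadenylase (170, 156 and 167 CPM). Also among them were Tbc1d2b, Kctd20, Psap, Ndufb3, Dynlrb1, Fkbp2, Eif2ak4, Wdr6, Galnt12, Asrgl1, 4933404O12Rik and 5031439G07Rik. Psap, the precursor of the saposins of the lysosome, was at 1337, 1227 and 1321 CPM. For all 3 genes with values male 1 was lowest before scaling, and the TMM factors of 1.04, 0.949 and 1.02 removed that difference.

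Genes that are often used as references did not stand out as stable. The median SD of log2 CPM over 20 of them was 0.16, against 0.11 for all genes of at least 10 CPM. These sets were not matched for abundance. Over all tested genes the median SD was 0.11 at 10 to 100 CPM and at 100 to 1000 CPM, and 0.23 above 1000 CPM. Eef1a1 was at 3335, 3274 and 3005 CPM with an SD of 0.11. The ribosomal protein genes Rpl13a, Rplp0 and Rps18 had SDs of 0.18, 0.22 and 0.21. Tuba1b (alpha tubulin), named after its value was seen, had an SD of 0.03.

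**Figure D4:**
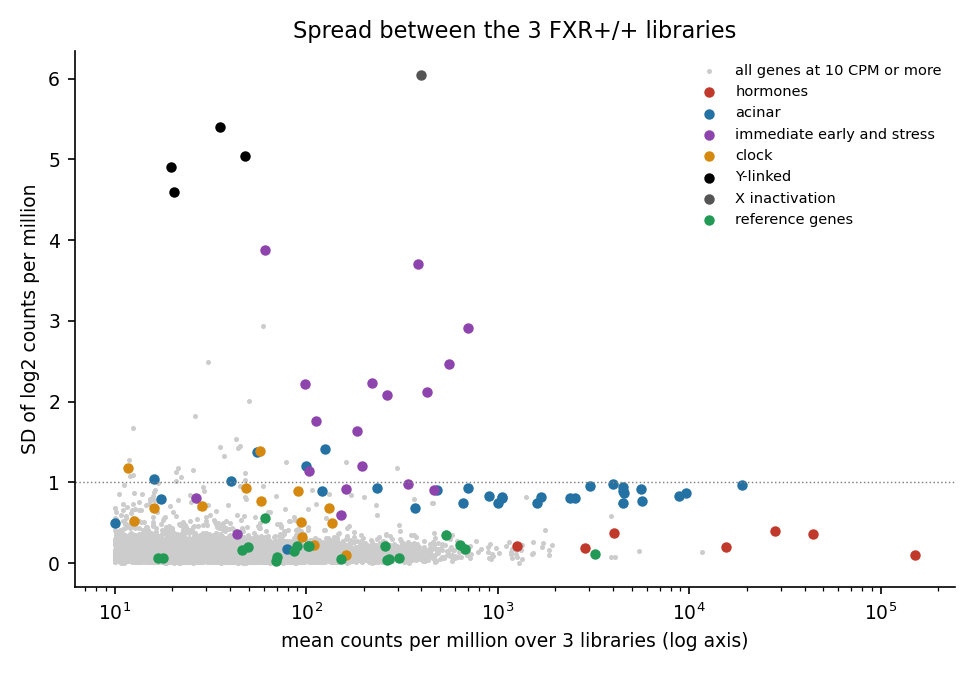
SD of log2 CPM over the 3 FXR+/+ libraries (y axis) against mean CPM (x axis, log scale) for 9269 genes with at least 10 CPM, with gene lists in colour. The dotted line marks an SD of 1, which 47 genes reach; Xist and the Y-linked genes lie highest, then Atf3, Fosb and Fos.

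An SD of at least 1 was reached by 47 of 9269 genes (0.507%), and by 93 genes without female 1. Of the 47, 12 were in the immediate early and stress list, 5 in the acinar list, 5 were Xist or Y-linked, 2 were clock genes, 2 were collagen genes and 21 were in no list. The library farthest from the other 2 was male 2, lower, for 23 of the 47 genes, male 1, higher, for 13, and female 1, lower, for 8. Male 2 was the higher one for 2 genes, female 1 for 1 (Xist), and male 1 the lower one for 0. Over all 9269 genes the counts were 1239 for male 2 lower, 1407 for male 1 higher, 1138 for female 1 lower, 1920 for male 2 higher, 1119 for female 1 higher and 2446 for male 1 lower.

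After the sex-linked genes, the 10 most variable genes were all lowest in male 2, and 8 of them were in the immediate early and stress list. Fos, a subunit of the AP-1 factor, was at 867 CPM in female 1, 1190 in male 1 and 32.3 in male 2. Fosb was at 399, 750 and 6.77 CPM, and Egr1, a zinc finger factor, at 677, 946 and 43.2. Male 2 was thus the low library for each, and female 1 was nearer to male 1.

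Atf3, a stress-induced factor, was at 35.1, 148 and 0.763 CPM and had an SD of 3.88, the largest after the sex-linked genes. Npas4, which depolarisation and calcium induce in neurons and beta cells, was at 55.9, 120 and 2.59 CPM, and Arc, an immediate early gene of synapses, at 39.0, 51.0 and 2.26. Npas4 and Arc were the 2 that the list does not hold. Jun was at 420, 818 and 51.0 CPM and Junb at 306, 456 and 32.4. Dusp1, a phosphatase of MAP kinases, was at 231, 406 and 22.7 CPM, and Ier2 at 110, 174 and 10.2.

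Across the immediate early and stress list 21 of 24 tested genes were lowest in male 2, against 35.1% of all tested genes, and 23 of 24 were highest in male 1, against 36.8%. The median deviation from a gene's own mean was 0.32 on the log2 scale in female 1, 1.47 in male 1 and −1.84 in male 2. The metallothioneins Mt1 (530, 654 and 210 CPM) and Mt2 (191, 224 and 71.5) and the AP-1 subunit Jund (346, 532 and 148) had the same order with a smaller spread. The list took 0.470%, 0.771% and 0.114% of counts. Of its exceptions, the heat shock genes Hspa1a (94.4, 390 and 105 CPM) and Hspa1b (46.8, 195 and 67.7) were high only in male 1, and Hsph1 was highest in male 2 (97.1, 144 and 216); these were named after their values were seen. Acinar genes were also mostly highest in male 1 (34 of 37), with a median deviation of −0.36 in female 1. The part of acinar RNA in these values was not tested.

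**Figure D5:**
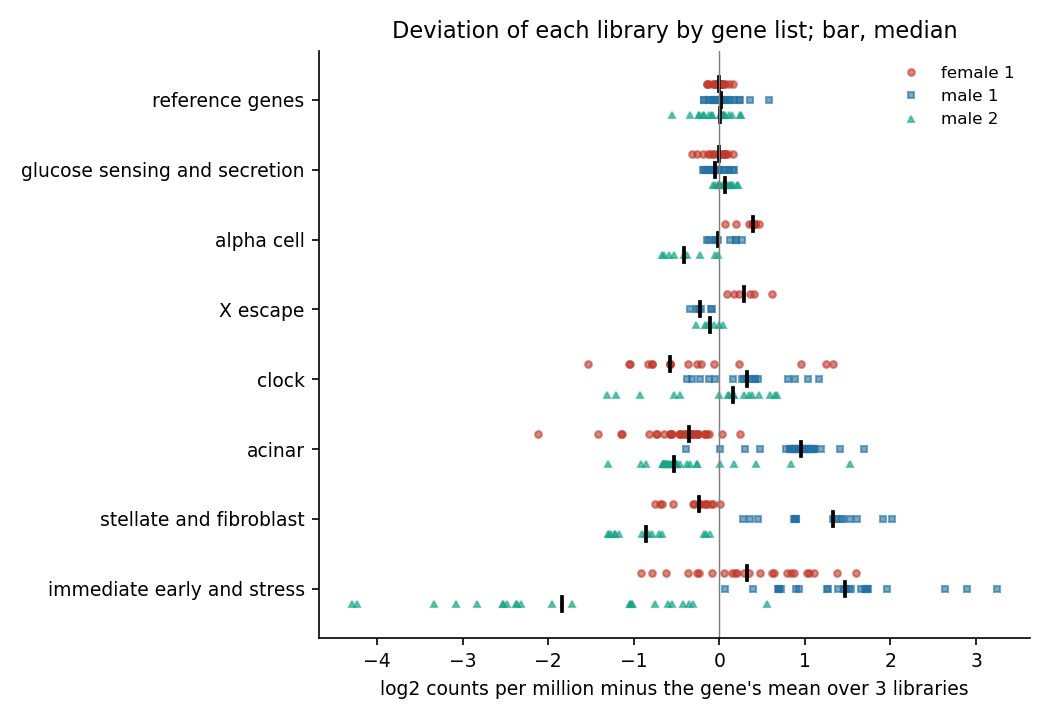
Log2 CPM (TMM-scaled) of each tested gene minus its mean over the 3 FXR+/+ libraries (x axis), by gene list (y axis) and library (symbols), with a bar at the median. Immediate early and stress genes have medians of 0.32, 1.47 and −1.84 in female 1, male 1 and male 2, acinar genes −0.36, 0.96 and −0.53, and reference genes lie close to 0.

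Clock genes were most often lowest in female 1, with exceptions. Dbp, a transcription factor driven by the clock, was at 16.1, 96.5 and 59.9 CPM in female 1, male 1 and male 2, and Tef, of the same family, at 74.2, 147 and 174. Nr1d1 (REV-ERB alpha) was at 56.1, 157 and 59.5 CPM, and Cry2 was nearly level, at 159, 146 and 176. Female 1 was lowest for 11 of 17 clock genes, against 28.6% of all tested genes. Of genes of the opposite phase, 3 that were named after their values were seen were highest in female 1: Arntl (BMAL1), the partner of CLOCK, was at 11.5, 3.49 and 2.42 CPM, Npas2 at 1.60, 0.485 and 0.199 and Nfil3 at 19.6, 11.8 and 3.92. None of the 17 passed the test between the sexes, and the lowest adjusted p by edgeR was 0.228 (Per3; 21.4, 54.6 and 68.9 CPM). Alternatives called some of them: over 7 settings of the fit the adjusted p ran from 2.22e-06 to 0.304 for Per3 and from 6.46e-10 to 0.796 for Dbp, both called by DESeq2 and by edgeR with library size alone. DESeq2 also called Tef, Per2 and Nr1d2, and edgeR with library size alone also called Arntl.

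The remaining acinar genes with an SD of at least 1 were the trypsinogen Prss3 (37.3, 242 and 98.4 CPM), the REG protein Reg3b (102, 164 and 34.3) and the acinar factor Rbpjl (8.49, 29.6 and 10.1). Outside the lists, the trypsinogen-like Gm5771 was at 7.03, 100 and 44.1 CPM, so that female 1 was lowest, as for Prss3. The collagen genes with an SD of at least 1 were Col3a1, above, and Col1a1 (5.16, 29.0 and 3.48 CPM). These genes were named after their values were seen.

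Proliferation genes were scarce. Their median was 1.68 TPM over 15 genes, and Pcna, the sliding clamp of DNA replication, was the highest, at 36.7, 44.2 and 38.1 CPM. Mcm2, of the replicative helicase, was at 11.6, 13.9 and 17.1 CPM and Ube2c, of mitosis, at 0.776, 2.08 and 1.82. All 15 were lowest in female 1, against 28.6% of tested genes, with a median log2 difference of −1.29, and none passed the test.

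Of the genes the study set out from, Nr1h4, which encodes FXR itself (NCBI gene 20186; chromosome 10, 89454234 to 89533645), was at 15.2, 13.3 and 12.8 CPM in female 1, male 1 and male 2. It was at 9.24 ± 1.03 TPM (SD, n = 3), higher than 63.4% of genes. Cox6a2, a complex IV subunit of heart and muscle (NCBI gene 12862; chromosome 7, 128205435 to 128206366), was at 33.1, 32.2 and 42.4 CPM and 70.2 ± 11.3 TPM. Its widely expressed paralog Cox6a1 was at 331 ± 15.9 TPM. Vdac1, the channel of the outer mitochondrial membrane, was at 96.2 ± 3.76 TPM, and the apoptosis effector Bax at 71.9 ± 4.95 TPM. The SDs of log2 CPM were 0.11 for Nr1h4 and 0.20 for Cox6a2.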

How the data were processed

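RNA-seq of isolated islets from FXR+/+ mice was re-analysed from 3 libraries. Per the labels, poly(A) RNA was enriched with oligo(dT), reverse transcribed from random hexamers and sequenced on an Illumina instrument. HISAT is named in the submitters' processing notes; its version, the counting tool and the strand setting are not given in the sources used here. Islets were freed with collagenase P, per the study's methods. Between the FXR+/+ and the FXR knockout mice, these methods give a strain for the knockout mice only.

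The authors deposited whole-number counts per gene, not normalized, for 19342 genes, and counts per exon, of which 99.5% lie within the RefSeq GRCm38 span of their gene and which sum to 33.1% to 36.6% of the gene counts. No mitochondrially encoded gene is listed. The number of count columns without a sample was 0. The authors' comparison of genotypes and the knockout columns were not used.

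Totals were 21901610 (female 1), 20629306 (male 1) and 30139235 (male 2). Shares have 95% Wilson half-widths of at most 0.0190 percentage points, which cover counting error only. CPM is per library total. TPM used the median length of the GENCODE vM21 transcripts with a RefSeq accession (17484 genes), else the exon table. Spread and the female against male contrast were computed in R 4.3.3 with edgeR 4.0.16 (filterByExpr with minimum count 10 and total 15, TMM, glmQLFit and glmQLFTest, Benjamini-Hochberg, threshold 0.05; prior count 2 for log2 CPM), tested on simulated data. DESeq2 1.42.0, other scalings, filters and lengths, and leaving out each library were alternatives. No pair of libraries agreed within sampling noise.

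Named genes are the hormone markers, the 30 highest by CPM and 20 by TPM, the 15 largest and 15 smallest SDs at 10 CPM or more, the called genes, up to 4 most abundant per list, Nr1h4 and Cox6a2. The members and the gene lists were chosen with earlier results of these data known. Some genes that met these rules are not reported here.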

Additional observations from a re-analysis of the deposited data

How the results depend on the processing

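The endocrine share of 28.1% of counts was 54.3% by TPM, 53.1% by TPM with the lengths of the exon table (chosen after seeing the data), 16.5% with exon counts summed per gene and 10.8% of the total without Ins1 and Ins2. The acinar share of 8.90% was 1.64% with exon counts and 5.80% without male 1. The stromal share of 0.119% was 0.0514% and 0.0531% by the same measures of TPM, 0.151% with exon counts and 0.147% without insulin, where the immune share of 0.0363% was 0.0449%. The 272 genes that hold 50% of the counts were 4 by TPM. Leaving out 1 library gave a biological coefficient of variation of 15.8% to 22.3% against 18.5%, and 34 to 93 genes with an SD of at least 1 against 47; the highest of both came without female 1. The 6 genes called between the sexes were 22 with library size alone (10 higher in the female) and 17 with DESeq2 (6 higher). Glycam1 was no longer called without the count filter (adjusted p = 0.0642) or with legacy estimates (adjusted p = 0.196), both by edgeR. The causes of these shifts were not tested, except that a shorter gene gains by TPM and that a smaller total raises shares of the rest. The other 96 values under the alternatives kept their direction and, where a test could be made, their call, or stayed within 1 SD of the libraries (shares, coefficient of variation) or within 1.5 times (counts of genes).

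No paired analysis was possible because the female group has 1 library, so that the groups compared share fewer than 2 replicate numbers. Leaving out a male library leaves no residual degree of freedom, so that differences between the sexes then have a direction and no test, and leaving out the female library removes the contrast between the sexes. With 3 libraries, single-gene spread rests on 3 values.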

Other observations

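In the exon table the counts of Gcg were concentrated in 1 exon, the most 3′ one of 455 bases, which had 84466, 41995 and 65291 counts in female 1, male 1 and male 2, whereas the other 5 exons had at most 634 each. For Ins1, the first listed exon had 5, 12 and 15 counts and the second 379357, 292862 and 645949. For Ppy, the 4 exons had at most 451 counts each, although the gene table gives Ppy 62320, 64206 and 77547 counts. The rule by which exons were counted is not stated, so shares from exon counts are not comparable with those from gene counts.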
